A study of Rattus norvegicus with 52 samples.

Results

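Retinoic acid metabolism was followed in rat lung through 6 genes, namely Cyp26b1 (degradation), Aldh1a1 and Aldh1a2 (synthesis), Rarb (receptor), Stra6 (retinol uptake) and Crabp2 (cytoplasmic binding), out of 34034 symbols in the count files. They were picked by name with earlier results of these libraries known, so their levels and differences are given as a description, without a test. Retinoic acid, the active form of vitamin A, is made from retinol by oxidation, the last step being that of retinal dehydrogenases of the Aldh1a family, and is broken down by cytochrome P450 enzymes of the Cyp26 family. Between these it binds nuclear receptors (RARs, paired with RXRs) that act at paired half-sites in DNA, and several genes of the pathway are themselves textbook targets of those receptors. In the lung, retinoic acid is known for its part in branching, in the formation of alveoli and in the upkeep of airway epithelium.

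The libraries came from lung of SD rats, labelled genotype WT, after 1 intratracheal instillation of a quaternary ammonium compound, a cationic surfactant class used in disinfectants. The dose values were 0.0625, 0.125 and 0.25 for DDAC, 0.125, 0.25 and 0.5 for both ADEB18 and ABD, and 0.25, 0.5 and 1 for BKC. Their unit is missing from the labels. The Control group received DW by the same route. BKC and DDAC usually stand for benzalkonium chloride and didecyldimethylammonium chloride, although the labels give the short names alone. Each of the 13 groups held 4 libraries, 52 in all, and the time after instillation, the age and the sex were not given in the labels. Because the RNA is from lung tissue with its mix of cells, fewer cells of a type and less RNA per cell cannot be told apart. Total counts per library ran from 8026084 to 13852249, no pair of libraries held identical counts, and all 6 lung markers looked for had counts in every group. All 6 genes passed the filter on low counts. Levels are CPM (counts scaled to a common library size by TMM, with SD over n = 4). Log2 fold changes come from an edgeR fit to all 52 libraries and carry its SE. The files count reads near the 3' end, so CPM are set against each other within a gene and not between genes.

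Sequence around the gene starts is shown first for the genes on which the values turn. All 6 genes were found in the RefSeq promoter table of build GRCr8, which holds 250 bases before and 50 after each gene's start. The half-sites searched on both strands were AGGTCA, the second word AGTTCA, the third word GGGTCA, and the fourth word GGTTCA, with overlapping matches counted. A direct repeat of these with a 5-base spacer is the textbook form of the retinoic acid response element. The upstream 250 bases of Cyp26b1, the gene with the largest differences below, lie at chr4:118616177-118616426 on the minus strand, and those of Aldh1a2, whose group means were most like its own among the 6, lie at chr8:80758391-80758640 on the plus strand. Neither stretch held a half-site, so that no letter is in capitals.
Cyp26b1: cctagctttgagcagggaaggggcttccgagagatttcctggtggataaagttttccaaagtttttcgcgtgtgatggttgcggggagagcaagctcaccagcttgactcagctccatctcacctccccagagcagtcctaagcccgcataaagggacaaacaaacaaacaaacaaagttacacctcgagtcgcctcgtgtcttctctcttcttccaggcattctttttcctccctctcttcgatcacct
Aldh1a2: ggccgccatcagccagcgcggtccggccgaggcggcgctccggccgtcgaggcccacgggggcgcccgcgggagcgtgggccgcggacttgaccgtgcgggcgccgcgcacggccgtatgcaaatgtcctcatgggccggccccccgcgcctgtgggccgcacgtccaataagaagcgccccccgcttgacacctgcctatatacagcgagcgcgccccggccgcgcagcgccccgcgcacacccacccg
Of the 6 genes, 1 held the 5-base-spaced repeat in its 300-base window, namely Rarb, at chr15:11336416-11336432 on the plus strand, from base 25 to base 41 after the start. The same search over 38 other retinoid genes in the table found it in 1, Cyp26a1, the relative of Cyp26b1 that is a textbook retinoic acid target, at chr1:244883730-244883746 on the minus strand. The half-sites are in capitals and the spacer in lower case.
Rarb: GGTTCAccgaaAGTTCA
Cyp26a1: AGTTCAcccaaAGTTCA
Among 33469 promoter windows of 300 bases, 0.382% held a repeat with this spacer, 0.17% one with a 2-base spacer, and 44.4% at least 1 half-site. In the upstream 250 bases alone, 39.1% held at least 1 half-site. These matches are letters in a window and not measured binding, and windows without one say nothing of sites elsewhere.

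Cyp26b1, which oxidises retinoic acid to inactive products, was lower on average in all 12 dosed groups than in Control, and 42 of 48 dosed libraries lay below the lowest Control library. DDAC at 0.0625 had 36, 19.4, 27.8 and 53 CPM, DDAC at 0.125 had 38.9, 64.1, 64.3 and 53 CPM, and DDAC at 0.25 had 108, 43.9, 57 and 45.9 CPM, against 129, 215, 114 and 115 CPM in Control. All 12 DDAC libraries were below all 4 Control libraries, the lowest dose was the lowest group of the study, and 1 library at 0.25 stood close to the Control range. The group means were 34.0 ± 14.3, 55.1 ± 12 and 63.7 ± 30.1 CPM from the lowest to the highest DDAC dose, against 143 ± 48.2 CPM in Control, which is 23.8%, 38.5% and 44.5% of the Control mean. The log2 fold changes over Control were -2.07 ± 0.38, -1.38 ± 0.37 and -1.17 ± 0.37 (SE). All 12 comparisons with Control use the same 4 Control libraries, so they are not independent of each other.

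ADEB18 gave the other large differences of Cyp26b1, and here the group mean was lower at each higher dose. ADEB18 at 0.125 had 54.4, 116, 54.4 and 89.5 CPM, at 0.25 it had 39.5, 88.7, 71.2 and 32.6 CPM, and at 0.5 it had 62.8, 31.3, 68.8 and 27.5 CPM, against 129, 215, 114 and 115 CPM in Control. At 0.25 and 0.5 every library lay below the Control libraries, and at 0.125 1 library lay within their range. The means of 78.5 ± 29.9, 58.0 ± 26.5 and 47.6 ± 21.2 CPM correspond to log2 fold changes over Control of -0.87 ± 0.36, -1.31 ± 0.37 and -1.58 ± 0.37.

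BKC left Cyp26b1 at about the same mean at each dose. BKC at 0.25 had 45.8, 79.7, 53.6 and 114 CPM, at 0.5 it had 53.8, 54.1, 61.7 and 120 CPM, and at 1 it had 63.3, 74, 60.5 and 113 CPM, against 129, 215, 114 and 115 CPM in Control. In each of the 3 groups replicate 4 was the highest library and lay next to the lowest Control library. It was just below that Control library at 0.25 and 1 and above it at 0.5. Against Control these are log2 fold changes of -0.97 ± 0.36, -0.98 ± 0.36 and -0.88 ± 0.36. With ABD, values overlapped Control at the lower doses: 142, 79.3, 102 and 173 CPM at 0.125, 179, 54.4, 147 and 89.1 CPM at 0.25, and 91.0, 109, 113 and 85.9 CPM at 0.5. ABD at 0.5 lay just below the Control libraries, and the log2 fold changes over Control were -0.21 ± 0.36, -0.28 ± 0.36 and -0.52 ± 0.36, the first 2 smaller than their SE.

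**Figure D1:**
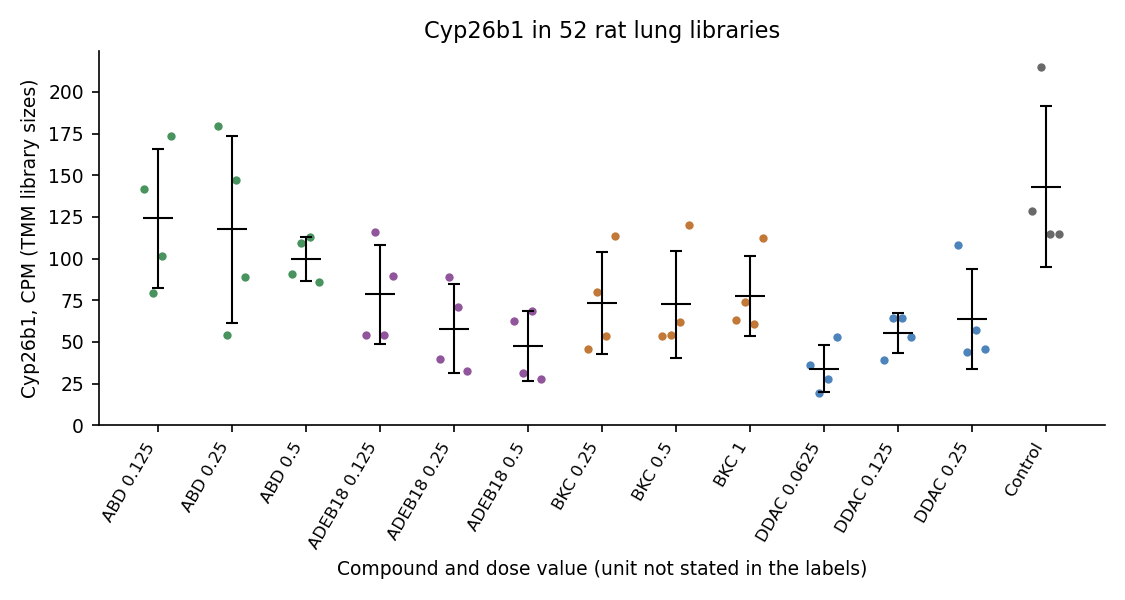
Cyp26b1 in CPM (vertical axis) in each of 52 libraries, by compound and dose value (horizontal axis, Control at the right). Points are libraries and bars are group mean ± SD (n = 4). The DDAC groups, with means of 34.0 to 63.7 CPM, lie below Control at 143 CPM, and 1 Control library stands at 215 CPM.

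Control replicate 2, at 215 CPM, stood apart from the other 3 Control libraries. Without it the Control mean was 119 ± 8.03 CPM (n = 3), and the log2 fold changes were -1.82, -1.11 and -0.91 for DDAC from the lowest to the highest dose, -0.60, -1.04 and -1.33 for ADEB18, -0.71, -0.72 and -0.63 for BKC, and 0.06, -0.01 and -0.27 for ABD. The differences of DDAC, ADEB18 and BKC kept their sign without this library, while that of ABD at 0.125 changed sign.

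In the order of group means, Control came first, then ABD from its lowest to its highest dose, then ADEB18 at 0.125, BKC at 1, 0.25 and 0.5, DDAC at 0.25, ADEB18 at 0.25, DDAC at 0.125, ADEB18 at 0.5 and DDAC at 0.0625. None of the 12 neighbouring pairs in this order differed by more than the larger SD of the pair, the widest gap being 0.713 of it, so the order is one of overlapping neighbours. Within a compound, the log2 difference of the highest over the lowest dose was 0.91 for DDAC (95% interval 0.17 to 1.65), -0.72 for ADEB18 (-1.45 to 0.01), -0.31 for ABD (-1.04 to 0.41) and 0.09 for BKC (-0.64 to 0.81). Among the doses of 1 compound, the mean of Cyp26b1 was thus highest at the highest dose for DDAC and lowest at the highest dose for ADEB18. The DDAC mean at 0.25 includes 1 library at 108 CPM. By median, DDAC stood at 31.9, 58.6 and 51.5 CPM from its lowest to its highest dose, so its highest median was at 0.125. The ADEB18 medians of 72.0, 55.4 and 47.1 CPM kept the order of its means. As for all 6 genes, the intervals give the error of a difference and are not read as tests.

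Compounds given at the same dose value could be set side by side in 12 pairs. At 0.125, the log2 difference of Cyp26b1 in DDAC over ABD was -1.17 (95% interval -1.91 to -0.43). At 0.25 the differences over ABD were -1.02 (-1.76 to -0.29) for ADEB18, -0.88 (-1.62 to -0.15) for DDAC and -0.68 (-1.41 to 0.05) for BKC. At 0.5 they were -1.06 (-1.80 to -0.33) for ADEB18 and -0.46 (-1.19 to 0.27) for BKC. Differences among DDAC, ADEB18 and BKC ran from -0.51 (-1.24 to 0.22) for DDAC over ADEB18 at 0.125 to 0.60 (-0.13 to 1.34) for BKC over ADEB18 at 0.5, with -0.20 (-0.93 to 0.53) for DDAC over BKC at 0.25. Intervals of this width do not show that the compounds act alike.

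Aldh1a2 codes for a retinal dehydrogenase that makes retinoic acid in mesenchymal and mesothelial cells. Its mean was below Control in 11 of 12 dosed groups, and 36 of 48 dosed libraries lay below the lowest Control library. ADEB18 at 0.5 had 60.7, 43.0, 51.5 and 47.9 CPM, and DDAC at 0.0625 had 63.1, 60.2, 47.1 and 35.2 CPM, against 83.1, 102, 99.6 and 92.7 CPM in Control. BKC at 0.25 had 65.4, 68.9, 41.3 and 71.1 CPM, at 0.5 it had 65.1, 53.2, 39.8 and 63.5 CPM, and at 1 it had 51.1, 43.3, 56.6 and 73.1 CPM. All libraries of these 5 groups lay below the 4 Control libraries. The means were 50.8 ± 7.47 CPM for ADEB18 at 0.5 and 51.4 ± 12.9 CPM for DDAC at 0.0625, against 94.3 ± 8.49 CPM in Control, with log2 fold changes of -0.89 ± 0.25 and -0.87 ± 0.25. The 3 BKC doses gave -0.61 ± 0.25, -0.77 ± 0.25 and -0.75 ± 0.25.

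In other groups the Aldh1a2 libraries overlapped Control. ADEB18 at 0.25 had 72.3, 104, 40.5 and 89.1 CPM and DDAC at 0.25 had 57.8, 59.3, 58.3 and 91.5 CPM, while ABD at 0.125 had 133, 110, 89.8 and 94.3 CPM. In DDAC at 0.25 3 libraries lay close together below the Control range and 1 within it, and in ADEB18 at 0.25 the libraries spread widely. ABD at 0.125 was the only group with a mean above Control, at 107 ± 19.7 CPM against 94.3 ± 8.49 CPM. Against ABD at the same dose value, Aldh1a2 was lower in ADEB18 at 0.125 by a log2 fold change of -0.77 (95% interval -1.26 to -0.27). It was lower in ADEB18 at 0.5 by -0.73 (-1.23 to -0.24) and in BKC at 0.5 by -0.61 (-1.11 to -0.11). DDAC at 0.125 averaged 68.7 ± 19.2 CPM, also below ABD at 0.125. Over the 13 group means, Aldh1a2 and Cyp26b1 correlated at r = 0.80. Control is 1 of these 13 means, and r between Cyp26b1 and each of the other 4 genes lay between -0.43 and 0.02. An r of 0.80 is not particular to the pathway. Genes picked from all those expressed for their likeness to Cyp26b1 reached 0.88 to 0.91 (below), and Lipe reached 0.76.

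**Figure D2:**
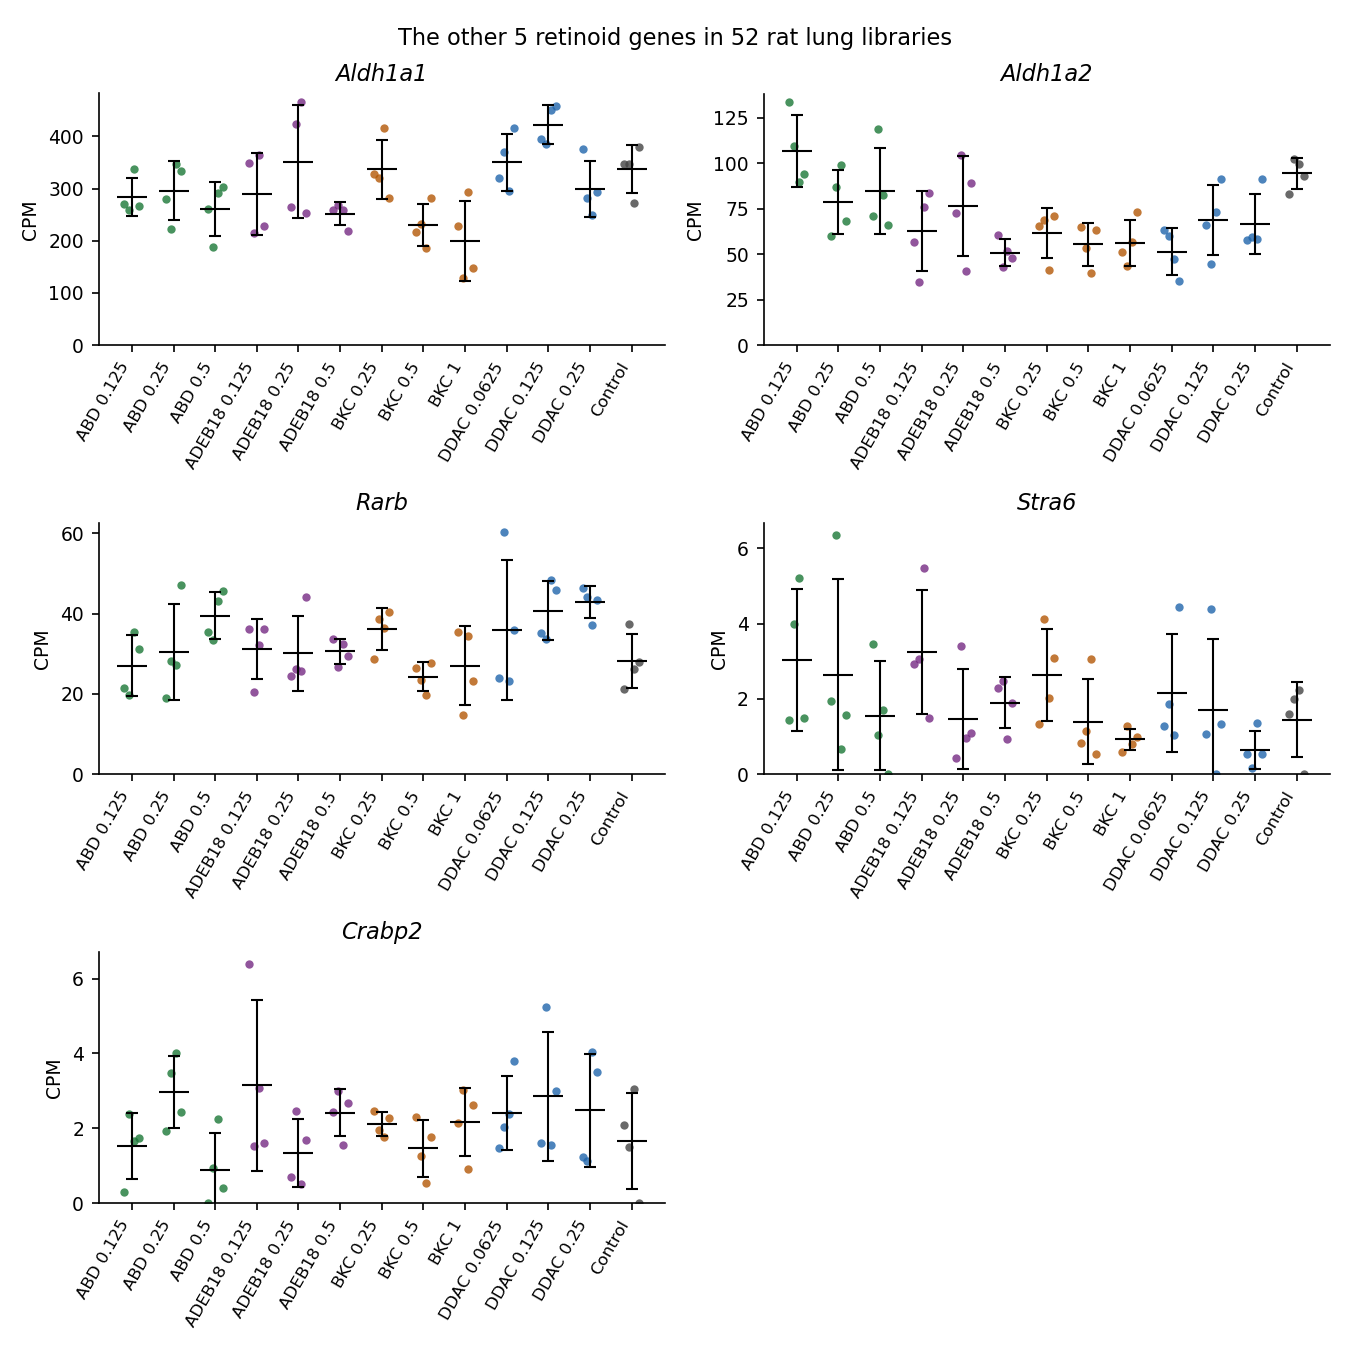
Levels in CPM (vertical axes, each from 0) of Aldh1a1, Aldh1a2, Rarb, Stra6 and Crabp2 in each library, by compound and dose value with Control at the right; bars are mean ± SD (n = 4). Aldh1a2 lies between 50.8 and 61.7 CPM on average in the BKC groups, in ADEB18 at 0.5 and in DDAC at 0.0625, against 94.3 CPM in Control, while Stra6 and Crabp2 stay at a few CPM.

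Mesothelial and fibroblast markers were measured beside Aldh1a2, since both cell types are known to express it. The summed level of 9 mesothelial markers was 477 to 714 CPM in ADEB18 at 0.5, 457 to 673 CPM in BKC at 0.25, 559 to 792 CPM in BKC at 0.5, 583 to 718 CPM in BKC at 1 and 421 to 477 CPM in DDAC at 0.0625, against 457 to 649 CPM in Control. None of the 8 that could be tested was called in these 5 groups, and of the 9, Calb2 was at 0 in all libraries of ADEB18 at 0.5. The 10 fibroblast markers summed to 6809 to 8132 CPM in ADEB18 at 0.5, 6297 to 7291 CPM in BKC at 0.25, 6015 to 7553 CPM in BKC at 0.5, 5804 to 7959 CPM in BKC at 1 and 7106 to 8380 CPM in DDAC at 0.0625, against 7522 to 10089 CPM in Control. The fibroblast sum thus lay wholly below Control in BKC at 0.25 and overlapped it in the other 4 groups, and no marker of this list was at 0. Of its 10 markers, 1 fell in ADEB18 at 0.5, 2 fell in BKC at 0.5, 1 rose and 1 fell in BKC at 1, and none was called in BKC at 0.25 or DDAC at 0.0625. The part of these cell types in the Aldh1a2 and Cyp26b1 differences was not tested.

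Aldh1a1, the retinal dehydrogenase of airway epithelium, was lowest with BKC. BKC at 0.5 had 217, 233, 187 and 283 CPM and BKC at 1 had 228, 128, 294 and 148 CPM, against 348, 348, 273 and 381 CPM in Control. In both groups 3 of 4 libraries were below the Control range and 1 was just inside it. The means were 230 ± 40.1 and 200 ± 76.3 CPM, against 337 ± 45.5 CPM in Control, with log2 fold changes of -0.55 ± 0.20 and -0.76 ± 0.20. BKC at 0.25 averaged 337 ± 56.7 CPM, and BKC at 1 was below BKC at 0.25 by -0.75 (95% interval -1.16 to -0.34).

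With the other compounds Aldh1a1 differed from Control in either direction. ADEB18 at 0.5 had 260, 269, 260 and 219 CPM, all below the Control libraries, with a log2 fold change of -0.42 ± 0.20. DDAC at 0.125 had 396, 386, 452 and 458 CPM, all above the Control libraries, with a log2 fold change of 0.33 ± 0.20. DDAC at 0.125 was also above ADEB18 at 0.125 by 0.55 (95% interval 0.14 to 0.95) and above ABD at 0.125 by 0.58 (0.17 to 0.98). The 10 club cell markers, for the airway cells that express Aldh1a1, summed to 4537 to 9342 CPM in BKC at 0.5, 3553 to 7946 CPM in BKC at 1, 5785 to 7190 CPM in ADEB18 at 0.5 and 7000 to 12004 CPM in DDAC at 0.125, against 7257 to 13131 CPM in Control. Of the 10, 1 fell in BKC at 0.5, 2 in BKC at 1 and 1 in ADEB18 at 0.5, and no marker was at 0 in these groups. Their part in the Aldh1a1 result was not tested.

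Rarb, the receptor gene that carries the repeat printed above, had its highest group means in DDAC at 0.25 and 0.125. A mean above Control was not particular to DDAC, since only 3 of 12 dosed groups averaged below Control. ABD at 0.5 averaged 39.5 ± 5.84 CPM and BKC at 0.25 averaged 36.1 ± 5.24 CPM. DDAC at 0.0625 averaged 35.9 ± 17.4 CPM and Control 28.2 ± 6.79 CPM. DDAC at 0.0625 had 24.1, 60.4, 23.2 and 36 CPM, DDAC at 0.125 had 35.1, 33.6, 48.3 and 45.8 CPM, and DDAC at 0.25 had 46.5, 44.2, 37.3 and 43.4 CPM, against 21.3, 37.5, 26.1 and 28.1 CPM in Control. At 0.25, 3 of 4 libraries were above the highest Control library and the fourth was next to it, while at 0.0625 1 library alone was above it. Over Control, Rarb had log2 fold changes of 0.35, 0.53 and 0.61, each with an SE of 0.26. With BKC at 0.5 Rarb had 26.4, 23.5, 19.7 and 27.7 CPM, against 35.5, 33.5, 43.2 and 45.6 CPM in ABD at the same dose value. The log2 fold change was -0.70 (95% interval -1.22 to -0.18). Over the 13 group means, r was 0.51 between Rarb and Aldh1a1 and -0.31 between Rarb and Cyp26b1.

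Stra6, the membrane receptor that takes up retinol from its plasma carrier, and Crabp2, which carries retinoic acid to the nucleus, were near the limit of detection. Stra6 had 0 to 62 counts per library and a median of 1.46 CPM, and Crabp2 had 0 to 81 counts and a median of 2.00 CPM. Stra6 was at 0 in 3 libraries, namely ABD at 0.5 replicate 4, DDAC at 0.125 replicate 3 and Control replicate 4, where a count of 0 allows up to 0.236, 0.276 and 0.266 CPM. Crabp2 was at 0 in ABD at 0.5 replicate 1 and in Control replicate 4, with limits of 0.265 and 0.266 CPM. These limits cover counting error alone.

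Neighbouring group means of both genes differed by less than the larger SD. Stra6 averaged 0.645 ± 0.497 CPM in DDAC at 0.25 and 3.24 ± 1.65 CPM in ADEB18 at 0.125, the lowest and highest groups, against 1.45 ± 1.00 CPM in Control. Crabp2 averaged 0.888 ± 0.974 CPM in ABD at 0.5 and 3.15 ± 2.28 CPM in ADEB18 at 0.125, against 1.66 ± 1.28 CPM in Control. The log2 fold changes of Stra6 over Control ran from -1.17 ± 0.92 to 1.16 ± 0.87 and those of Crabp2 from -0.90 ± 0.74 to 0.92 ± 0.72. With these low counts and this spread between libraries, no difference from Control could be made out for either gene. Between compounds, Stra6 in DDAC at 0.25 was below BKC at 0.25 by -2.03 (95% interval -3.88 to -0.18) and below ABD at 0.25 by -2.04 (-3.89 to -0.19), both at low counts. The Crabp2 value for ABD at 0.5 was moved by 1 library, replicate 3, the highest of its group. Without it the log2 fold change over Control was further from Control, at -1.94 in place of -0.90.

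**Figure D3:**
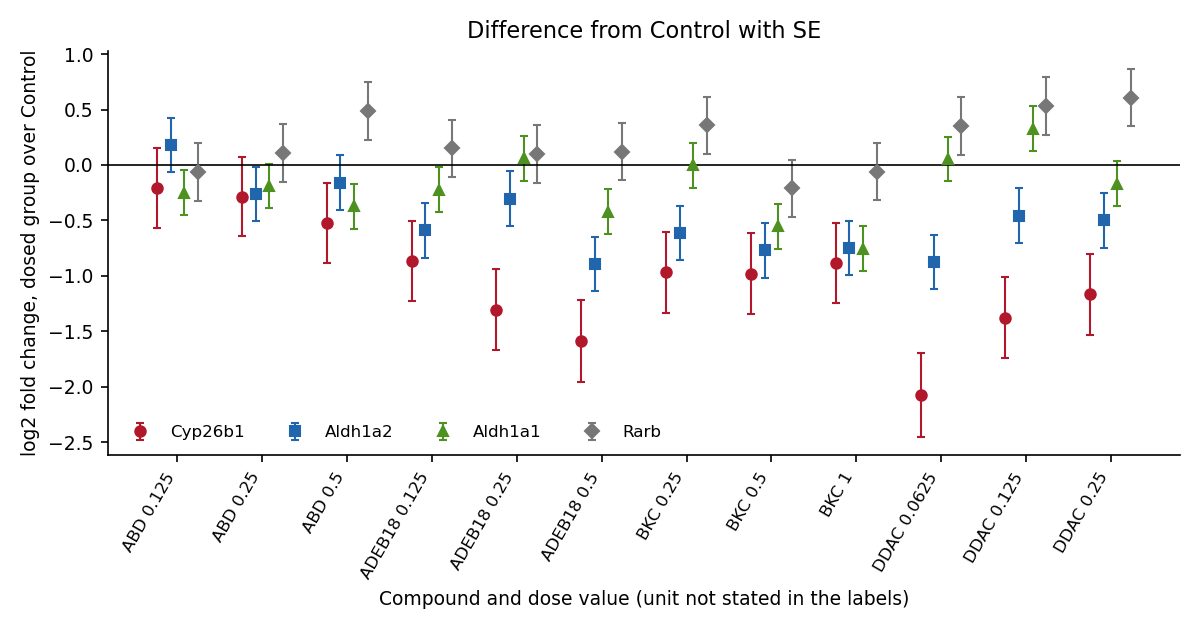
Log2 fold change of each dosed group over Control (vertical axis) for Cyp26b1, Aldh1a2, Aldh1a1 and Rarb, by compound and dose value (horizontal axis); bars are ± SE from the fit to all libraries. Cyp26b1 lies lowest, at -2.07 in DDAC at 0.0625. Rarb lies above 0 in the DDAC groups, at 0.35 to 0.61, and also in other groups such as ABD at 0.5.

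Complete separation from Control was counted over the 6 genes in each dosed group, beside its share among all genes tested. All 4 dosed libraries lay below all 4 Control libraries for 3 of the 6 genes in ADEB18 at 0.5 (5.95% of all genes tested), 2 in BKC at 0.25 (3.20%), 2 in BKC at 1 (5.89%) and 2 in DDAC at 0.0625 (4.27%). The number was 1 in ABD at 0.5 (1.53%), ADEB18 at 0.25 (1.58%), BKC at 0.5 (5.42%), DDAC at 0.125 (4.15%) and DDAC at 0.25 (3.89%). It was 0 in ABD at 0.125 (0.972%), ABD at 0.25 (1.49%) and ADEB18 at 0.125 (2.12%). In the other direction, 1 gene lay above Control in DDAC at 0.125 (4.69%). None did in ABD at 0.125 (0.91%), 0.25 (1.14%) or 0.5 (1.75%), in ADEB18 at 0.125 (1.59%), 0.25 (1.48%) or 0.5 (8.34%), in BKC at 0.25 (3.36%), 0.5 (6.47%) or 1 (7.94%), or in DDAC at 0.0625 (5.82%) or 0.25 (6.10%). Because the genes were picked with these values known, nothing is read from the counts.

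The genes whose group means followed Cyp26b1 most closely were found among 12222 genes with at least 5 CPM in 1 group, by r over 13 group means. The highest were Tssc4 (0.91), Kat5, a histone acetyltransferase (0.89), Neurl1b, an E3 ubiquitin ligase (0.88), Zc3h18 (0.88) and Nr2f1, an orphan nuclear receptor (0.88). Neurl1b averaged 41.2 CPM in DDAC at 0.0625 against 97.1 CPM in Control, and Nr2f1 averaged 34.2 against 47.2 CPM. With group medians in place of means, Neurl1b and Nr2f1 ranked 1 and 2, and Tssc4 ranked 30. The most opposite patterns were those of Glrx, a glutaredoxin (-0.94), Stx16, a vesicle fusion protein (-0.89) and St3gal5, a ganglioside sialyltransferase (-0.87). Glrx averaged 29.7 CPM in DDAC at 0.0625 against 18.2 CPM in Control.

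The other genes of the pathway formed a list of 55 in 8 roles, all in the files, of which 47 passed the low-count filter. The list was set by role but with earlier results of these data known, so its shares of called genes are a description. Those left out were Cyp26a1 with 86 counts over all 52 libraries, Cyp26c1 with 5, and Rdh5, Rdh16, Adh4, Dhrs9, Bco1 and Rbp2, so that no gene of the degradation role but Cyp26b1 itself could be followed. In this list, tested with edgeR's quasi-likelihood test and Benjamini-Hochberg adjustment over all genes, ADEB18 at 0.5 and BKC at 0.5 and 1 held all but 1 of the calls against Control. In these 3 groups Aldh1a3, Dhrs3 and Tgm2 fell, and Fabp5, a fatty acid binding protein that also binds retinoic acid, rose. In BKC at 0.5, 7 of 47 fell and 1 rose, 17.0% of the list against 9.15% of all genes. In BKC at 1, 6 fell and 1 rose, 14.9% against 10.4%, and in ADEB18 at 0.5, 3 fell and 1 rose, 8.51% against 4.66%. In DDAC at 0.0625 1 fell, 2.13% against 2.32%. The count for BKC at 0.5 was 5, 4 or 5 in place of 8 without BKC at 0.5 replicate 2, BKC at 0.5 replicate 3 or Control replicate 4, and that for BKC at 1 was 3 in place of 7 without BKC at 1 replicate 4. The median log2 fold change of the list, beside that of all genes, was -0.26 beside 0.00 in BKC at 0.5, -0.18 beside -0.01 in BKC at 1, -0.22 beside 0.00 in ADEB18 at 0.5 and -0.07 beside 0.00 in DDAC at 0.0625.

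No gene of the list was called by edgeR in the other 8 comparisons with Control. At an unadjusted p under 0.05 there were 2, 3 and 4 for ABD at 0.125, 0.25 and 0.5, 4 and 4 for ADEB18 at 0.125 and 0.25, 6 for BKC at 0.25, and 6 and 10 for DDAC at 0.125 and 0.25. DESeq2 called 2 in BKC at 0.25, 2 in DDAC at 0.125, 1 in DDAC at 0.25 and 0 in the other 5. The share of all genes called by edgeR was 0% for ABD at 0.125, 0.0225% for ABD at 0.25, 0.0169% for ABD at 0.5, 0.0393% for ADEB18 at 0.125 and for ADEB18 at 0.25, 0.208% for BKC at 0.25, 1.48% for DDAC at 0.125 and 2.47% for DDAC at 0.25. Without Control replicate 2 edgeR called 1 gene in BKC at 0.25 and 1 in DDAC at 0.125.

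Of the synthesis genes, Aldh1a3, the third retinal dehydrogenase of the family, fell most. It had 29.8, 31.2, 24.6 and 25.7 CPM in ADEB18 at 0.5, 23.5, 21.6, 17.5 and 33.1 CPM in BKC at 0.5 and 30.3, 23.2, 31.2 and 13.8 CPM in BKC at 1, against 55.4, 65.7, 69.2 and 65.8 CPM in Control. All 12 dosed libraries were below the 4 Control libraries. The log2 fold changes were -1.20 ± 0.25 (adjusted p = 0.00364, edgeR), -1.42 ± 0.25 (adjusted p = 0.000378) and -1.38 ± 0.25 (adjusted p = 0.000347), and these calls held when any 1 library was left out. In the DDAC groups Aldh1a3 averaged 52.4, 45.7 and 43.6 CPM from the lowest to the highest dose and did not pass the test (log2 fold changes of -0.29 to -0.55). Adh1, an alcohol dehydrogenase that oxidises retinol, was named for the highest mean CPM among synthesis genes of this list, which leaves out Aldh1a1. It averaged 61.3 ± 13.9 CPM in BKC at 0.25, against 104 ± 32.8 CPM in Control, and was not called in any group against Control.

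Dhrs3, which turns retinal back into retinol, fell in the same 3 groups. It had 37.2, 26.7, 30.9 and 31.7 CPM in ADEB18 at 0.5, 41.2, 33.2, 25.4 and 34.1 CPM in BKC at 0.5 and 37.9, 27.8, 44.9 and 24.7 CPM in BKC at 1, against 58.1, 51.5, 50.6 and 77.6 CPM in Control. Again all 12 dosed libraries were below the Control libraries. In Dhrs3 these are log2 fold changes of -0.91 ± 0.19 (adjusted p = 0.00346, edgeR), -0.83 ± 0.19 (adjusted p = 0.00327) and -0.81 ± 0.19 (adjusted p = 0.00307), and these calls held when any 1 library was left out.

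Fabp5 rose in these groups. It had 493, 709, 701 and 631 CPM in ADEB18 at 0.5, 738, 843, 925 and 515 CPM in BKC at 0.5 and 822, 1045, 701 and 557 CPM in BKC at 1, against 383, 259, 271 and 208 CPM in Control. All 12 dosed libraries were above the Control libraries. The log2 fold changes were 1.18 ± 0.29 (adjusted p = 0.0135, edgeR), 1.43 ± 0.29 (adjusted p = 0.00143) and 1.48 ± 0.29 (adjusted p = 0.000813). The first call was lost without Control replicate 4 (adjusted p = 0.0695), and the 2 calls in BKC held when any 1 library was left out. Fabp5 is also on the list of 10 recruited macrophage markers, which summed to 2303 to 2734 CPM in ADEB18 at 0.5, 2179 to 3853 CPM in BKC at 0.5 and 2509 to 4181 CPM in BKC at 1, against 1214 to 1369 CPM in Control. Of these 10, 5, 6 and 6 rose in the 3 groups, with Fabp5 among them each time and its own level a part of each sum. No marker was at 0, and the part of recruited macrophages in the Fabp5 result was not tested.

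**Figure D4:**
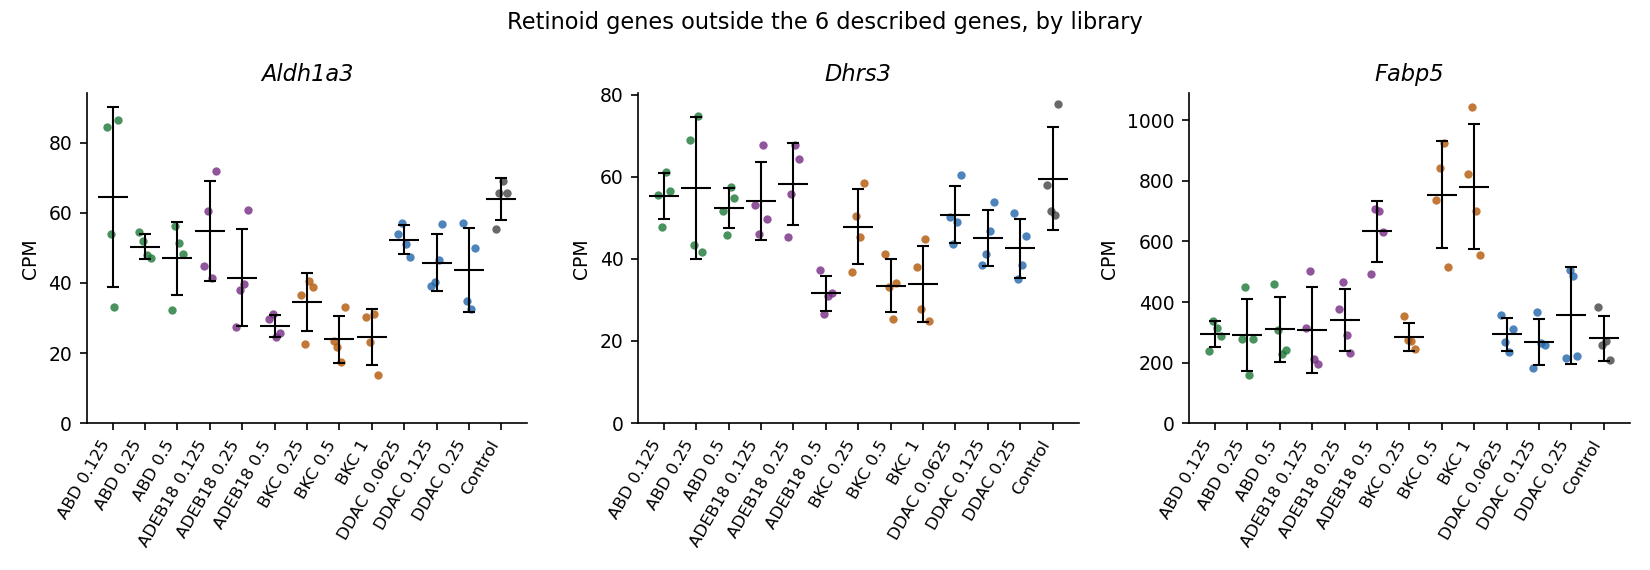
Aldh1a3, Dhrs3 and Fabp5 in CPM (vertical axes, each from 0) in each library, by compound and dose value with Control at the right; bars are mean ± SD (n = 4). Aldh1a3 averages 27.8, 23.9 and 24.6 CPM in ADEB18 at 0.5, BKC at 0.5 and BKC at 1, against 64 CPM in Control, and Fabp5 averages 633, 755 and 781 CPM, against 280 CPM in Control.

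Tgm2, a transglutaminase and textbook retinoic acid target, also fell in these 3 groups. It had 573, 555, 611 and 569 CPM in ADEB18 at 0.5 and 518, 600, 393 and 664 CPM in BKC at 0.5, against 1123, 930, 736 and 810 CPM in Control, with no overlap in either. Its log2 fold changes were -0.64 ± 0.16 in ADEB18 at 0.5 (adjusted p = 0.0146, edgeR), -0.73 ± 0.16 in BKC at 0.5 (adjusted p = 0.00279) and -0.49 ± 0.16 in BKC at 1 (adjusted p = 0.0374). The call in BKC at 0.5 held when any 1 library was left out. That in ADEB18 at 0.5 was lost without ADEB18 at 0.5 replicate 2 (adjusted p = 0.0505) or Control replicate 1 (0.0737), and that in BKC at 1 was lost in 6 of 8 such fits (up to 0.179, without Control replicate 1). Hoxa4, a homeobox gene of the retinoic acid targets, was at 12.5 ± 5.06 CPM in BKC at 0.5 and 12.3 ± 2.29 CPM in BKC at 1, against 21 ± 4.48 CPM in Control (log2 fold changes of -0.75 and -0.78, adjusted p = 0.0317 and 0.0230 in edgeR). Its calls were lost in 6 of 8 fits with 1 library left out in BKC at 0.5 (adjusted p up to 0.212) and in 2 in BKC at 1, without BKC at 1 replicate 4 (0.110) or Control replicate 4 (0.0905).

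Ces1d, a carboxylesterase that hydrolyses retinyl esters, was lower with BKC. It had 78.3, 84.9, 28.8 and 122 CPM in BKC at 0.5 and 129, 47.5, 110 and 27.1 CPM in BKC at 1, against 173, 187, 162 and 192 CPM in Control. The libraries of both BKC groups lay below Control but spread over a wide range. Against Control these are log2 fold changes of -1.18 ± 0.31 (adjusted p = 0.0118, edgeR) and -1.19 ± 0.31 (adjusted p = 0.0103). The first call was lost without BKC at 0.5 replicate 3 (adjusted p = 0.106), the second without BKC at 1 replicate 2 (0.0599) or replicate 4 (0.0657).

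Lipe, a lipase that also acts on retinyl esters, was the gene called with DDAC. It had 152, 171, 182 and 171 CPM in DDAC at 0.0625, against 268, 297, 296 and 325 CPM in Control. The groups did not overlap, and the log2 fold change was -0.81 ± 0.22 (adjusted p = 0.0322, edgeR). The call was nonetheless lost in 7 of 8 fits that left out 1 library (adjusted p up to 0.103). DDAC at 0.125 had 186 ± 39.2 CPM and a log2 fold change of -0.67 that did not pass the test.

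Among receptors, Rara, the ubiquitous retinoic acid receptor, was at 82.6 ± 8.77 CPM in BKC at 0.5 against 111 ± 9.71 CPM in Control (log2 fold change -0.43 ± 0.13, adjusted p = 0.0322, edgeR). Rxrb, a partner receptor, was at 52.5 ± 3.49 CPM in BKC at 0.5 and 49.6 ± 6.18 CPM in BKC at 1, against 73.9 ± 15.1 CPM in Control (log2 fold changes of -0.49 and -0.57, adjusted p = 0.0382 and 0.0132). These calls were weakly held: that of Rara was lost in 4 of 8 fits with 1 library left out (adjusted p up to 0.192), that of Rxrb in BKC at 0.5 in 7 of 8 (up to 0.158) and in BKC at 1 without BKC at 1 replicate 4 (0.0799) or Control replicate 2 (0.0655). Ncor1, a corepressor of these receptors, had 163 ± 12.2 CPM in BKC at 0.5 and 161 ± 28.5 CPM in BKC at 1, against 174 ± 31.7 CPM in Control, and was not called in any group.

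**Figure D5:**
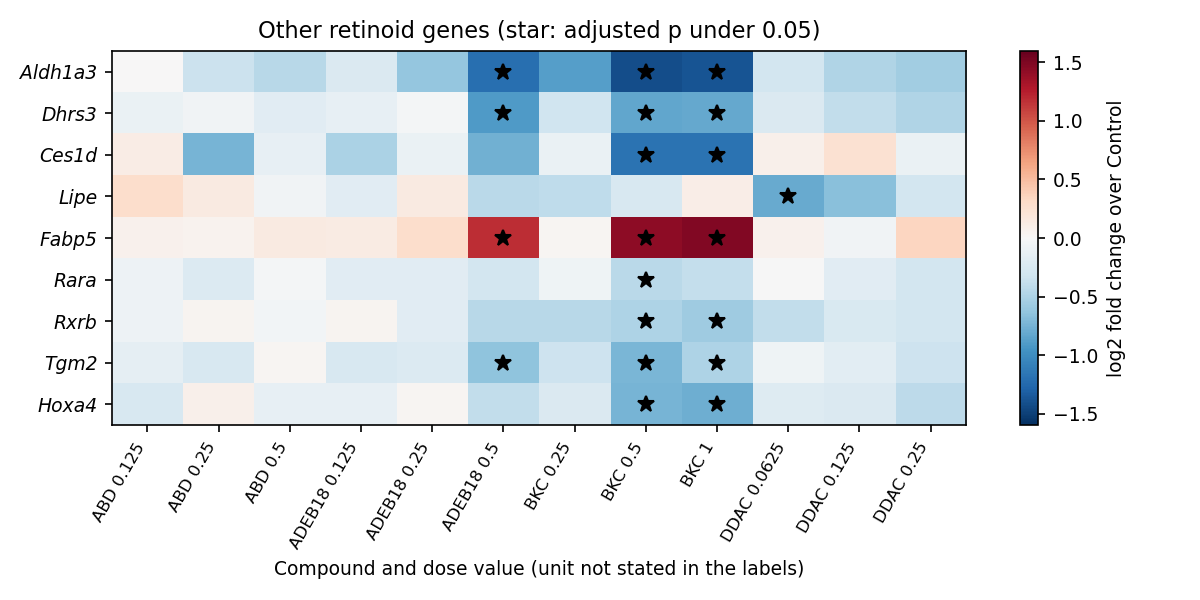
Log2 fold change over Control (colour) of 9 other retinoid genes (down the page) in each dosed group (across the page). A star marks an adjusted p under 0.05 in edgeR. Stars fall on 4 genes in ADEB18 at 0.5, 8 in BKC at 0.5, 7 in BKC at 1 and 1, Lipe, in DDAC at 0.0625, and the values run from -1.42 for Aldh1a3 to 1.48 for Fabp5.

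Markers of the alveolar wall moved in the groups that hold most of these calls. The 10 endothelial markers summed to 2197 to 2422 CPM in ADEB18 at 0.5, 1570 to 2507 CPM in BKC at 0.5 and 1823 to 2491 CPM in BKC at 1, against 2690 to 3451 CPM in Control, and 0, 6 and 3 of them fell. The 10 alveolar type 1 markers summed to 4605 to 6039, 2954 to 6023 and 3459 to 5491 CPM in these groups, against 6320 to 9286 CPM in Control, and 1, 6 and 5 of them fell. The 10 alveolar type 2 markers summed to 18703 to 23488, 17969 to 22743 and 16986 to 26203 CPM. Control stood at 18743 to 20094 CPM, with overlap in each group. Their median log2 fold changes were 0.34, 0.25 and 0.30. Of the 10, 1 fell in ADEB18 at 0.5, 1 rose in BKC at 0.5, and 3 rose and 1 fell in BKC at 1. No marker of these lists was at 0. Cyp26b1 was also lower on average in these groups. The part of these cell types in the differences of Aldh1a3, Dhrs3, Tgm2 and Cyp26b1 there was not tested. In DDAC at 0.0625, where Cyp26b1 was lowest, the endothelial markers summed to 2771 to 3154 CPM, within the Control range, and none of the 10 was called. The 10 lymphocyte markers summed to 198 to 246 CPM there, against 97.8 to 177 CPM in Control, with no overlap, and 1 of them rose. The 8 smooth muscle markers summed to 3019 to 4474 CPM, against 1249 to 3298 CPM in Control, and the 10 macrophage markers to 10699 to 13330 CPM, against 12758 to 18917 CPM in Control, both with overlap and with none called. Of the 10 dendritic cell markers, which summed to 168 to 200.1 CPM against 195 to 249 CPM in Control, 1 fell, and Ccr7 was at 0 in both groups. The part of these cell types in the Cyp26b1 difference was not tested.

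Between doses and compounds, the list changed where the higher doses of ADEB18 and BKC were set against lower doses or against ABD. ADEB18 at 0.5 against 0.125 had 5 called genes of 47 (10.6%, against 2.44% of all genes), with Fabp5 and Rai14 higher and Aldh1a3, Dhrs3 and Ncoa2 lower. BKC at 1 against 0.25 had 3 (6.38%, against 3.99%), with Fabp5 and Rarres2 higher and Ces1d lower. BKC against ABD at 0.5 had 7 (14.9%, against 8.28%), with Fabp5 higher and Aldh1a3, Dhrs3, Ces1d, Ncoa2, Tgm2 and Meis2 lower. ADEB18 against ABD at 0.5 had 5 (10.6%, against 3.51%), with Fabp5 higher and Dhrs3, Ncoa2, Tgm2 and Meis2 lower. Rai14 and Rarres2 are named for their response to retinoic acid, Ncoa2 is a coactivator of nuclear receptors and Meis2 a homeobox gene of the retinoic acid targets; these 4 and Ncoa1 are named because they were called here, after their values were seen.

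Among these calls, 4 held when any 1 library was left out. They were Rai14 in ADEB18 at 0.5 against 0.125 (log2 fold change 0.81 ± 0.17, adjusted p = 0.00423, edgeR), Fabp5 in BKC at 1 against 0.25 (1.45 ± 0.29, adjusted p = 0.00280), and Fabp5 (1.29 ± 0.29, adjusted p = 0.00428) and Tgm2 (-0.75 ± 0.16, adjusted p = 0.00264) in BKC against ABD at 0.5. Each of the other 16 was lost without at least 1 library, with adjusted p up to 0.276 for Rarres2. Single libraries set the counts: ADEB18 against ABD at 0.5 had 0 called genes without ABD at 0.5 replicate 3 or ADEB18 at 0.5 replicate 2, and BKC against ABD at 0.5 had 2 without BKC at 0.5 replicate 3 and 4 without ABD at 0.5 replicate 3. ADEB18 at 0.5 against 0.125 had 1 without ADEB18 at 0.5 replicate 3, 2 without its replicate 2 or 4 or without ADEB18 at 0.125 replicate 3, and 3 without ADEB18 at 0.125 replicate 1. BKC at 1 against 0.25 had 1 without BKC at 1 replicate 2 or 4 or without BKC at 0.25 replicate 3 or 4.

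Ncoa1, another coactivator of nuclear receptors, was called higher in DDAC than in ABD at 0.125, in ADEB18 at 0.125 and in ABD at 0.25. It averaged 107 ± 10.4 CPM in DDAC at 0.125, against 64.5 ± 6.68 CPM in ABD and 67.0 ± 11.3 CPM in ADEB18 at this dose value, with log2 fold changes of 0.73 and 0.68. DDAC at 0.25 averaged 107 ± 14.5 CPM, against 68.9 ± 29.4 CPM in ABD at 0.25 (0.64). DDAC at 0.125 also had Rai14 called higher than ADEB18 (0.76) and Lipe called lower than ABD (-0.96), and BKC at 0.25 had Adh1 called lower than ABD (-0.89). These 6 calls are weakly held: each was lost in 3 to 7 of 8 fits that left out 1 library, with adjusted p up to 0.286 for Ncoa1 at 0.25. The shares of the list called were 4.26% in DDAC against ADEB18 at 0.125 (1.05% of all genes), 4.26% in DDAC against ABD at 0.125 (1.97%), 2.13% in DDAC against ABD at 0.25 (1.29%) and 2.13% in BKC against ABD at 0.25 (0.129%).

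In the other 8 comparisons between doses or compounds edgeR called no gene of the list. At an unadjusted p under 0.05 there were 1 to 7 genes in each of these, and DESeq2 called 1 in DDAC against ADEB18 at 0.25 and 0 in the other 7. The share of all genes called was 0% for BKC against ADEB18 at 0.25 and at 0.5, 0.0169% for ABD at 0.5 against 0.125 and for ADEB18 against ABD at 0.125 and at 0.25, 0.0225% for DDAC at 0.25 against 0.0625, 0.0337% for DDAC against BKC at 0.25 and 1.31% for DDAC against ADEB18 at 0.25. BKC against ADEB18 at 0.5 had 2 genes of the list at an unadjusted p under 0.05.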

How the data were processed

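Lung RNA of 52 rat libraries in 13 groups of 4 was measured by Lexogen QuantSeq 3' mRNA sequencing, per the labels' protocols. The authors deposited 1 table of raw counts per library. Reads were processed with STAR, HTSeq and fastp on build mRatBN7.2, per the submitters' processing notes, which carry no versions. Neither strand setting nor annotation is given in the sources used here, so overlapping antisense reads cannot be told apart. Counting near 3' ends means that a change in the 3' end used can alter a count. The labels do not say whether the 4 libraries of a group came from separate animals, so p-values measure the spread between these libraries, which may be technical.

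Counts were filtered with filterByExpr by group, leaving 17796 of 34034 symbols, scaled by TMM and fitted with edgeR 4.0.16 (R 4.3.3) with 1 term per group over all 52 libraries, leaving 39 residual degrees of freedom. The quasi-likelihood test was adjusted by the Benjamini-Hochberg method over all genes at 0.05, in 28 comparisons (12 with Control, 4 of highest against lowest dose, 12 of compounds at the same dose value). SE was the log2 fold change divided by the square root of F, and intervals are 95% intervals. The upper limit of a 0 is 3 counts. The fit was tested on simulated data. Alternatives were DESeq2 1.42.0, RLE size factors, no filter on low counts, the 2 groups alone, a replicate block and leaving out each library.

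The members and lists were chosen with earlier results of these data known. Named were the 6 genes, each listed retinoid gene called against Control in at least 1 comparison, the gene with the highest mean CPM of each role, and the 5 highest and 3 lowest in r with Cyp26b1 over 13 group means, among genes with at least 5 CPM in 1 group and leaving out provisional LOC, RGD, AABR and AC names. Promoter sequences are from RefSeq, build GRCr8, which is not the build of the counts.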

Additional observations from a re-analysis of the deposited data

Results flagged for a closer look

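In 5 of 78 groups of 4 libraries examined for the 6 genes, 1 library lay so far from the other 3 that its gap to the nearest was a larger share of the group's range than Dixon's critical value at 95%. Chance gives about 1 such group in 20. For Cyp26b1 these were BKC at 0.5 replicate 4, at 120 CPM against 53.8 to 61.7 CPM in the other 3, and Control replicate 2, at 215 CPM against 114 to 129 CPM. For Aldh1a1 it was ABD at 0.125 replicate 3, at 339 CPM against 259 to 270 CPM. For Aldh1a2 it was DDAC at 0.25 replicate 4, at 91.5 CPM against 57.8 to 59.3 CPM, and for Rarb it was ADEB18 at 0.25 replicate 4, at 44.2 CPM against 24.4 to 26.2 CPM.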

How the results depend on the processing

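With RLE size factors no count of called retinoid genes moved by more than 1.5 times. With the 2 groups of a comparison alone, the count was 9 in place of 5 for ADEB18 against ABD at 0.5, 0 in place of 1 for BKC against ABD at 0.25, 5 in place of 8 for BKC at 0.5 against Control, 1 in place of 3 for BKC at 1 against 0.25, 4 in place of 7 for BKC at 1 against Control, 0 in place of 2 for DDAC against ADEB18 at 0.125, 2 in place of 0 for DDAC at 0.125 against Control, 0 in place of 1 for DDAC against ABD at 0.25 and 1 in place of 0 for DDAC at 0.25 against Control. With DESeq2 it was 2 in place of 0 for BKC at 0.25 and for DDAC at 0.125 against Control, 1 in place of 0 for DDAC at 0.25 against Control and against ADEB18 at 0.25, and 2 in place of 1 for DDAC against ABD at 0.25. Without the filter on low counts it was 0 in place of 1 for DDAC against ABD at 0.25. With the replicate block it was 0 in place of 1 for BKC against ABD at 0.25 and 1 in place of 0 for DDAC at 0.25 against Control. Libraries of different groups with the same number had a mean residual correlation of 0.00387, against -0.00127 for those with other numbers. Of 312 pairs with the same number, 54 were over 0.1, with no such share taken for other pairs. These means over all genes show no common pairing by number and cannot exclude one in some groups or genes.

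Leaving out 1 library at a time gave, against Control, 3 to 6 called genes in ADEB18 at 0.5, 0 to 1 in BKC at 0.25, 4 to 9 in BKC at 0.5, 3 to 9 in BKC at 1, and 0 to 1 in DDAC at 0.0625 and at 0.125. It gave 0 to 6 for ADEB18 and 2 to 9 for BKC against ABD at 0.5, 1 to 5 for ADEB18 at 0.5 against 0.125, 1 to 4 for BKC at 1 against 0.25, 0 to 2 for BKC and 0 to 3 for DDAC against ABD at 0.25, and 0 to 2 for DDAC against ABD and against ADEB18 at 0.125. The cause of these differences was not tested. Stra6 and Crabp2, with medians of 14.5 and 21 counts, had low counts and a wide spread within groups (pooled SD of 1.15 and 0.95 log2). The part of depth in that spread was not tested.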
